A study of Arabidopsis thaliana and Arabidopsis lyrata subsp. lyrata with 12 samples.

Results

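The genes of flavonoid and anthocyanin synthesis were followed through heat stress (HS) and recovery in 2 *Arabidopsis* species. Their members were 10 named *A. thaliana* loci out of 32678 in the gene count table, and the 10 *A. lyrata* loci, out of 32793, that the deposited *A. lyrata* gene annotation ties to them as orthologues. Members were found by their identifiers. They were 7 enzymes, namely chalcone synthase (CHS), chalcone isomerase (CHI), flavanone 3-hydroxylase (F3H), flavonoid 3'-hydroxylase (F3'H), flavonol synthase 1 (FLS1), dihydroflavonol 4-reductase (DFR) and leucoanthocyanidin dioxygenase (LDOX), and 3 MYB transcription factors, PAP1, MYB12 and MYB111. Each species gave 6 RNA-seq libraries of rosette leaves, harvested at the 5-leaves stage after 3 weeks on soil at 21 °C with 16 h light and 8 h dark. The study's methods give 21 °C for the day and 16 °C for the night. The *A. thaliana* plants were wild-type Col-0 and the *A. lyrata* plants wild-type MN47, and neither carried a transgene or mutation. In each species 2 libraries came from mock-treated control plants, 2 from plants held at 37 °C for 6 h (HS), and 2 from plants given the same HS and then 48 h at 21 °C (recovery). The controls were taken directly after the stress, so that recovery and 48 h of further growth cannot be told apart. The sources used here do not say that the replicates came from separate plantings, and p-values measure only the spread between these libraries.

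Flavonoids are made from phenylalanine through the general phenylpropanoid pathway. CHS joins its product to malonyl-CoA, CHI closes the ring, and F3H and F3'H add hydroxyl groups. At the dihydroflavonols the path divides, since FLS1 leads to the flavonols, which act as sunscreens in leaf epidermis, and DFR and then LDOX lead to the anthocyanins, the red and purple pigments. In *A. thaliana*, MYB12 and MYB111 are known activators of the early genes CHS, CHI, F3H and FLS1, while PAP1 acts with basic helix-loop-helix partners and the WD-repeat protein TTG1 on the late genes such as DFR and LDOX.

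The libraries held between 8246880 and 45254555 counted reads. Levels are given as CPM, the reads of a gene scaled to a common library total, corrected by TMM factors, which align the libraries on the bulk of the genes. Differences were tested with edgeR's quasi-likelihood test in 1 fit per species, and a gene was called at an adjusted p under 0.05 after Benjamini-Hochberg adjustment over all 18536 tested *A. thaliana* or 20779 tested *A. lyrata* genes. Fold changes are from these fits unless stated. The check list of 5 heat shock genes rose in all HS libraries of both species, from a summed 19.3 to 102.68 CPM outside HS to 50881.76 and 52788.22 CPM in *A. thaliana*, and from 84.19 to 208.94 CPM to 24016.32 and 27387.52 CPM in *A. lyrata*. Leaf markers such as the antenna gene LHCB1.3 were high in every library. After HS 3 of 5 leaf markers rose in *A. thaliana*, while 4 of 4 fell in *A. lyrata* (summed 14150.59 and 16495.41 CPM against 26826.38 to 28497.42 CPM outside HS). Flower markers rose in *A. thaliana* HS (4 of 4 tested, summed 17.48 and 18.44 CPM against 2.76 to 8.4 CPM). The part of these marker changes in the values of the members was not tested. In every library all 5 root-marker genes except PYK10 lay at or below 1.18 CPM. The *A. thaliana* control pair stood apart from the other pairs. Of the tested genes, 6.29% differed more than 2-fold between control 1 and control 2, against 0.896% between the recovery libraries and 2.21% between the *A. lyrata* controls. The root gene PYK10 was at 7.89 CPM in control 2 and at 58.5 to 69.12 CPM in the other 5 *A. thaliana* libraries. After HS, CHS, MYB111, CHI, FLS1 and DFR kept their direction without either control, and the values that moved are given with each gene. A fit without 1 library leaves 1 library in that group. Its p-values and calls therefore do not measure the spread within that group.

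In *A. thaliana*, the first enzyme of the pathway and 1 of its activators rose after HS, while 3 of the enzymes that follow fell. Of the 10 members, 8 had enough reads to be tested. CHS and MYB111 rose, CHI, FLS1 and DFR fell, and LDOX, F3'H and PAP1 were not called. These counts have to be read against a response in which 34.9% of all tested genes were called higher and 39.5% lower. The shares depend on the scaling. When libraries were scaled by their totals alone, 23.5% of the called genes were higher instead of 46.9%, and the median log2 fold change of all genes moved from -0.12 to -0.87. The median over the 8 tested members was -0.80.

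CHS (AT5G13930, TAIR10 chr5:4488688-4490264, plus strand), which catalyses the entry step, stood at 35.1 and 26.8 CPM in the controls and at 368.0 and 425.1 CPM after HS. In recovery it was back at 28.5 and 30.5 CPM. The HS libraries lay far above the other 4, which did not separate from each other. The increase was 12.9-fold (log2 fold change 3.69 ± 0.17 SE, n = 2 per group, adjusted p = 1.33e-06 by edgeR), and it was 2.94 on the log2 scale with library totals.

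MYB111 (AT5G49330, chr5:19998952-20001378, minus strand), the activator of flavonol genes, followed the same course at a lower level. It was at 1.57 and 1.35 CPM in the controls, at 22.8 and 24.8 CPM after HS, and at 1.01 and 1.18 CPM in recovery. The rise was 16.6-fold (log2 fold change 4.05 ± 0.18 SE, n = 2 per group, edgeR adjusted p = 1.32e-06). MYB12 (AT2G47460), its close relative, had too few reads to be tested, with 1 and 3 reads in the controls, 3 and 23 after HS, and 1 and 3 in recovery. Summed over the libraries and scaled, the read ratio of HS to control for MYB12 was 8.34 (exact 95% interval 2.9 to 32.9, which covers counting error only).

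**Figure D1:**
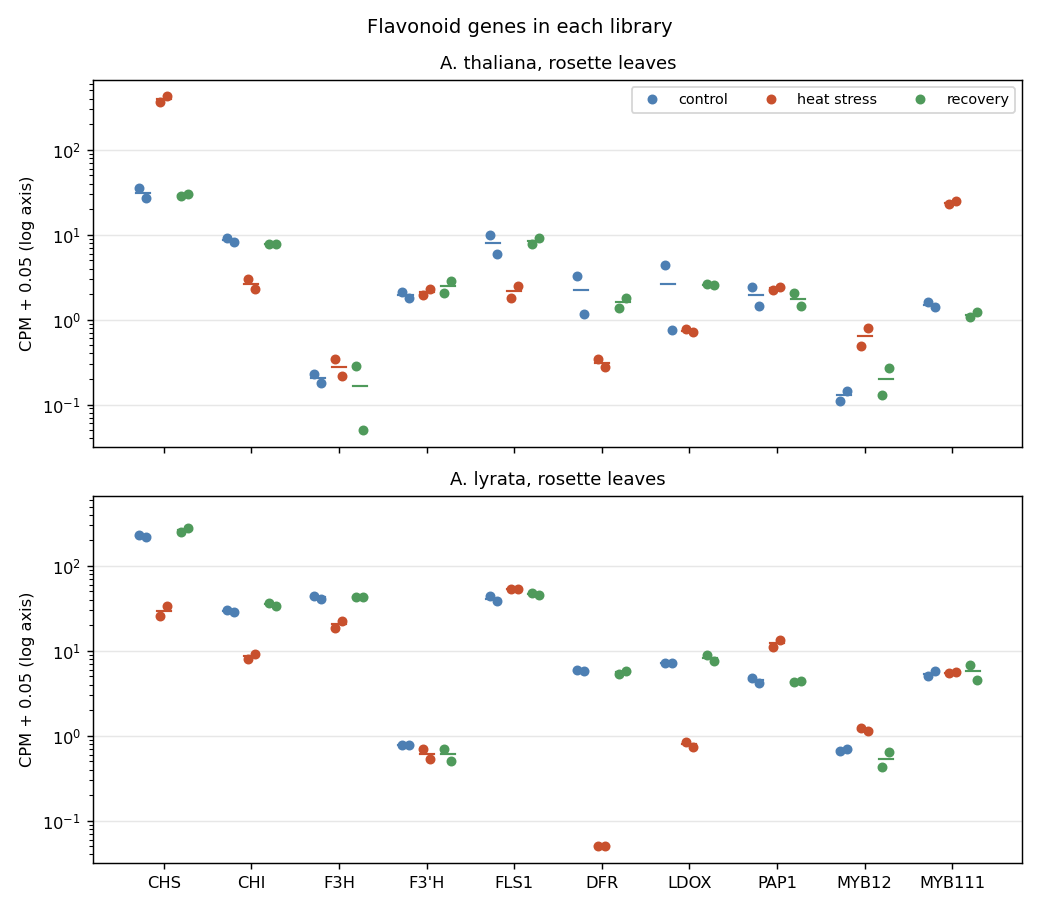
TMM-scaled CPM of each member in each library, with 0.05 added for the log axis, in *A. thaliana* (top) and *A. lyrata* (bottom). Points are libraries and short lines the means of 2. In *A. thaliana* the HS libraries of CHS and MYB111 stand far above the other 4, in *A. lyrata* those of CHS stand below them, and *A. lyrata* DFR, at 0 reads after HS, sits at the plot's lower edge.

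CHI (AT3G55120, chr3:20430114-20431470, minus strand) moved against CHS although it acts directly after it. Its levels were 9.05 and 8.17 CPM in the controls, 2.93 and 2.27 CPM after HS, and 7.62 and 7.67 CPM in recovery. The HS libraries were the lowest, 3.46-fold under the controls (log2 fold change -1.79 ± 0.20 SE, n = 2 per group, edgeR adjusted p = 0.000102). FLS1 (AT5G08640, chr5:2803957-2805606, plus strand), the branch enzyme to the flavonols, fell as well, from 9.84 and 5.83 CPM to 1.76 and 2.47 CPM, and was at 7.62 and 9.15 CPM in recovery. Its decrease was 3.42-fold (log2 fold change -1.77 ± 0.31 SE, n = 2 per group, edgeR adjusted p = 0.00122), so that MYB111 and FLS1 went in opposite directions in the same leaves. Without control 1 the log2 fold change of FLS1 was -1.33 and without control 2 it was -2.03.

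The late enzymes of the anthocyanin branch were scarce in *A. thaliana* leaves. DFR (AT5G42800, chr5:17164141-17165918, minus strand) was at 3.20 and 1.12 CPM in the controls, at 0.293 and 0.230 CPM after HS, corresponding to 2 and 7 reads, and at 1.32 and 1.77 CPM in recovery. Both HS libraries were below all others, and the decrease was 8.27-fold (log2 fold change -3.05 ± 0.68 SE, n = 2 per group, edgeR adjusted p = 0.00399). The log2 fold change of DFR was -2.18 without control 1 and -3.63 without control 2, and the call was lost without HS 2. LDOX (AT4G22880, chr4:12004768-12006209, minus strand) had controls that differed from each other, at 4.41 and 0.705 CPM, against 0.732 and 0.658 CPM after HS and 2.57 and 2.51 CPM in recovery. Its log2 fold change in HS was -1.81 ± 0.83 SE (n = 2 per group, edgeR adjusted p = 0.0799). It was -0.07 without control 1 and -2.65 without control 2. In control 2, where LDOX, DFR and FLS1 were lower than in control 1, PYK10 was also low, and its part in these values was not tested.

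The other *A. thaliana* members did not pass the test. F3'H (AT5G07990), which adds the hydroxyl group that turns kaempferol-type into quercetin-type flavonoids, was at 2.05 and 1.76 CPM in the controls and at 1.90 and 2.27 CPM after HS. PAP1 (AT1G56650) was at 2.35 and 1.41 CPM and at 2.19 and 2.37 CPM. For both the HS range overlapped the control range, with log2 fold changes of 0.18 ± 0.30 SE for F3'H and 0.33 ± 0.35 SE for PAP1 (n = 2 per group, edgeR adjusted p = 0.603 and 0.413). Without control 1 the log2 fold change of PAP1 was 0.72.

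F3H (AT3G51240, chr3:19025192-19026872, plus strand) was close to unmeasured in *A. thaliana*, with 17 reads over the 6 libraries. The non-coding locus AT3G51238 covers 94.47% of it, and the libraries do not keep strand. Of 298 protein-coding loci that another locus covers to at least 90%, 97.7% had under 60 reads in total, against 34.2% of the 23042 loci with no overlap. No level is therefore read from the *A. thaliana* F3H counts.

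The promoter sequences of the *A. thaliana* members that moved are shown because CHS and MYB111 rose while CHI, FLS1 and DFR fell. Each is the 250 bases before the gene start of the deposited table, 5′ to 3′ on the gene's strand, from the RefSeq copy of assembly TAIR10.1. Capitals mark matches, on either strand, to ACCTACC or ACCTAAC, sequences that MYB factors of the MYB12 and MYB111 type are known to recognise, to CACGTG, the G-box bound by HY5 and other bZIP factors, or to GAANNTTC, the core of heat shock elements.
CHS: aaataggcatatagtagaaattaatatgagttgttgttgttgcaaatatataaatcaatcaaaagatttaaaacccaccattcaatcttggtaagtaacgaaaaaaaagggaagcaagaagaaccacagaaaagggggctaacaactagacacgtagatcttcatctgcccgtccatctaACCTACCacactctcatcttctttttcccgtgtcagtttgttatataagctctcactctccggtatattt
MYB111: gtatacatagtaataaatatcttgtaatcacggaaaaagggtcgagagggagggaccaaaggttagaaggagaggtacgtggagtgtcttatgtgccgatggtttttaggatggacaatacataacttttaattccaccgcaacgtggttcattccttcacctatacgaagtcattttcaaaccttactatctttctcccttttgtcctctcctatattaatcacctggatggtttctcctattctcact
CHI: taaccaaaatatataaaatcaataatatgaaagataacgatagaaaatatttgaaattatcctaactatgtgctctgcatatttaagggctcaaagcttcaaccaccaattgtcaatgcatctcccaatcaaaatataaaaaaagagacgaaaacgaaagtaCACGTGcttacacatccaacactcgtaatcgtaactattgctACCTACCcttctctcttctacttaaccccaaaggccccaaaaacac
FLS1: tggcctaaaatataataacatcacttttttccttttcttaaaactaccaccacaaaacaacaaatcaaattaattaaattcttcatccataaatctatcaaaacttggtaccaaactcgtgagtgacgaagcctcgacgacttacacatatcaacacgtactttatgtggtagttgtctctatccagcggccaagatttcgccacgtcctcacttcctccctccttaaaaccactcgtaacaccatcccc
DFR: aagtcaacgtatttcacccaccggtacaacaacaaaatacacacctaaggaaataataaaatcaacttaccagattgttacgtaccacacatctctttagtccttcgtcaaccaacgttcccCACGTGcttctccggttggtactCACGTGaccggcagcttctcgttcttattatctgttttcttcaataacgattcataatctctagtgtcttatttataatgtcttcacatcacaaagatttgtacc
The windows were chr5:4488438-4488687 (plus) for CHS, chr5:20001379-20001628 (minus) for MYB111, chr3:20431471-20431720 (minus) for CHI, chr5:2803707-2803956 (plus) for FLS1 and chr5:17165919-17166168 (minus) for DFR.

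Both CHS and CHI held ACCTACC, ending 64 and 40 bases before the start, a sequence found in 1.2% of 26711 promoters of the same length. The pair that shares this match thus moved in opposite directions. The G-box, present in 7.73% of promoters, occurred in CHI and at 2 places in DFR among the printed sequences, and in F3H, PAP1 and MYB12 among the others. ACCTAAC (2.61% of promoters) and GAANNTTC (9.76%) had no match in the 10 windows. The matches depend on the gene start. With the gene starts of RefSeq, neither CHS nor CHI had an ACCTACC match, the G-box was found in CHS and no longer in CHI or PAP1, DFR held 1, and PAP1 had a GAANNTTC match.

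In *A. lyrata*, CHS went the other way, and 5 of the 6 enzymes with enough reads were lower after HS. Of the 10 orthologues, 9 were tested. CHS, CHI, F3H, DFR and LDOX fell, FLS1 and PAP1 rose, and MYB12 and MYB111 were not called, where 37.9% of all tested genes were higher and 38.7% lower. With library totals 39.9% of the called genes were higher instead of 49.5%, and the median of all genes moved to -0.25. The median over the 9 tested members was -1.02, beside -0.01 over all genes, and it is the same with DFR at its bound. Epidermis markers were also lower in these libraries (5 of 5 called, summed 216.64 and 223.52 CPM against 567.37 to 608.54 CPM outside HS), while in *A. thaliana* 3 of 5 fell and 1 rose, with a sum of 431.09 and 431.83 CPM against 519.74 to 557.73 CPM. The marker that rose, PDF1, was at 52.56 and 9.33 CPM in the controls and at 133.45 and 141.96 CPM after HS. The share of these marker changes in the flavonoid values was not tested, and fewer cells of a type cannot be told apart from less RNA per cell.

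*A. lyrata* CHS (AL6G24170, scaffold_6:5616860-5618404, plus strand, in the *A. lyrata* assembly v1.0) was the most abundant member, at 228.3 and 221.8 CPM in the controls. After HS it was at 25.6 and 33.5 CPM, and in recovery at 252.3 and 277.8 CPM. The decrease was 7.43-fold (log2 fold change -2.89 ± 0.11 SE, n = 2 per group, edgeR adjusted p = 1.36e-13). CHI (AL5G35120) fell 3.31-fold, from 29.8 and 28.6 CPM to 7.87 and 9.23 CPM (log2 fold change -1.73 ± 0.12 SE, edgeR adjusted p = 3.93e-10). F3H (AL5G30600), which no other locus overlaps here, fell 2.02-fold, from 44.7 and 40.4 CPM to 18.8 and 22.2 CPM (log2 fold change -1.02 ± 0.10 SE, edgeR adjusted p = 7.22e-08). In all 3 genes the HS pair lay below the other 4 libraries.

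The anthocyanin enzymes had few or no reads in the *A. lyrata* HS libraries. DFR (AL8G17720) had 58 and 79 reads in the controls, 0 and 0 after HS, and 57 and 127 in recovery. Taking 3 reads over the HS pair as the limit that a count of 0 allows, which covers counting error only, DFR was at least 59.2-fold lower. Its recovery level of 5.32 and 5.81 CPM overlapped the control level of 5.95 and 5.67 CPM. LDOX (AL7G29950) dropped from 7.08 and 7.11 CPM to 0.787 and 0.693 CPM, a 9.77-fold decrease (log2 fold change -3.29 ± 0.26 SE, n = 2 per group, edgeR adjusted p = 2.36e-09), and stood at 8.87 and 7.50 CPM in recovery.

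FLS1 (AL6G19080) was the exception among the enzymes. It was at 43.9 and 38.5 CPM in the controls and at 53.8 and 54.1 CPM after HS, a 1.32-fold rise (log2 fold change 0.40 ± 0.09 SE, n = 2 per group, edgeR adjusted p = 0.000714) that was not called with library totals (0.16, adjusted p = 0.125). F3'H (AL6G18080), annotated as containing a transposable element, had 5 to 11 reads per library and was not tested. Its read ratio of HS to control was 0.726 (exact 95% interval 0.343 to 1.53).

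Among the regulators, *A. lyrata* PAP1 (AL1G64640) rose 2.86-fold, from 4.72 and 4.16 CPM to 11.1 and 13.4 CPM (log2 fold change 1.52 ± 0.17 SE, n = 2 per group, edgeR adjusted p = 2.74e-07). PAP1 thus rose in the libraries in which DFR and LDOX, its known targets in *A. thaliana*, were lowest. The AL1G64640 gene model spans 4552 bp and is also annotated as containing a transposable element, and reads of that element were not separated from the count. MYB111 (AL8G22270) was at 5.03 and 5.67 CPM in the controls and at 5.38 and 5.51 CPM after HS (log2 fold change 0.02 ± 0.21 SE, edgeR adjusted p = 0.936). MYB12 (AL4G45170) was at 0.615 and 0.646 CPM and at 1.18 and 1.08 CPM, a difference that was not called (log2 fold change 0.80 ± 0.43 SE, n = 2 per group, edgeR adjusted p = 0.0978).

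**Figure D2:**
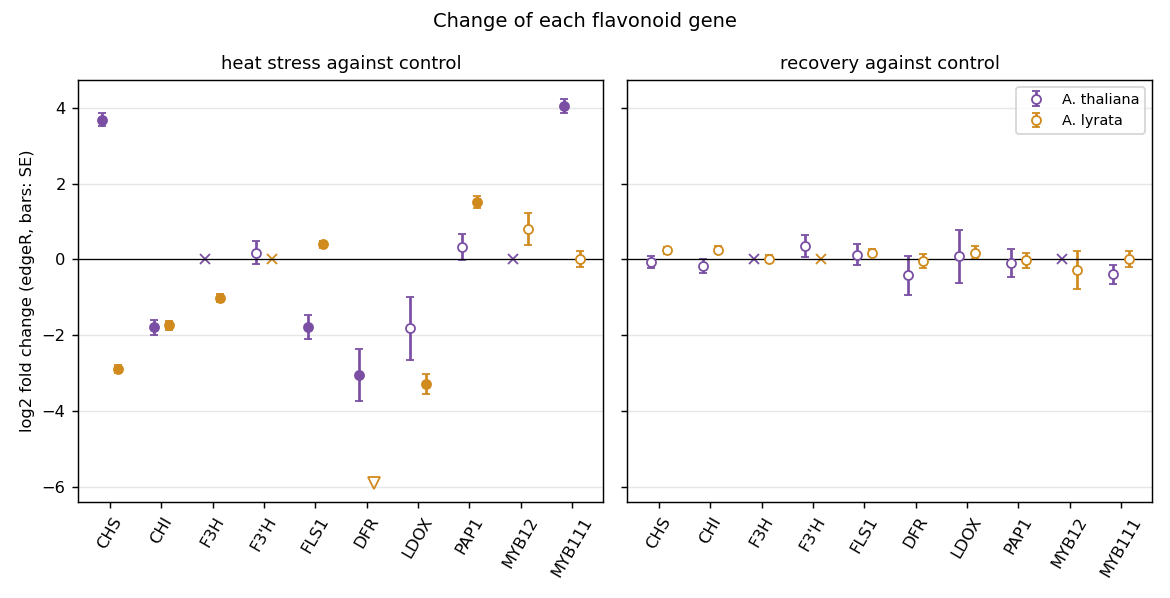
Log2 fold change of each member against its control after HS (left) and in recovery (right), with SE bars, in *A. thaliana* (purple) and *A. lyrata* (orange), n = 2 libraries per group. Filled circles were called at an adjusted p under 0.05, crosses mark members with too few reads to test, and the open triangle is the upper limit of *A. lyrata* DFR from 3 reads. After HS the species lie on opposite sides of 0 for CHS and FLS1, and in recovery no member is called.

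The difference between the species was tested directly in 1 fit of all 12 libraries over the genes paired as single orthologues, as the *A. lyrata* minus the *A. thaliana* log2 fold change. All 10 members were tested there. The HS response of FLS1 and PAP1 was higher in *A. lyrata*, that of CHS, DFR, MYB12 and MYB111 was lower, and 4 members were not called. Over all 17743 pairs, 32.0% were called higher and 30.6% lower, and with library totals 69.4% of the called pairs were higher instead of 51.2% and the median of all pairs was 0.55 instead of 0.05.

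Among the members with reads in every library of both species, CHS differed most, by -6.56 ± 0.22 SE (edgeR adjusted p = 5.5e-11). It was followed by MYB111, at -4.00 ± 0.30 SE (edgeR adjusted p = 6.17e-08), and by FLS1, at 2.14 ± 0.30 SE (edgeR adjusted p = 2.4e-05). The PAP1 difference was 1.16 ± 0.36 SE (edgeR adjusted p = 0.0116), and it was not called in DESeq2 or without *A. lyrata* HS 2. For DFR the fitted value depends on the 0 reads in *A. lyrata*. The call was lost without *A. lyrata* HS 2. The read ratio of HS to control was 0.131 in *A. thaliana* DFR (exact 95% interval 0.0581 to 0.261), beside 0 in *A. lyrata* (exact 95% interval 0 to 0.0211).

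CHI was the member whose fall was closest between the species. Its difference was 0.09 ± 0.21 SE (edgeR adjusted p = 0.729), and it was called with library totals (0.61, adjusted p = 0.0309). LDOX differed by -1.52 ± 0.97 SE (edgeR adjusted p = 0.188), and by -3.15 without *A. thaliana* control 1. The MYB12 difference of -2.07 ± 0.79 SE (edgeR adjusted p = 0.0336) rests on 4 control reads in *A. thaliana* and was lost in 10 of 13 alternatives. F3'H was not called (-0.59 ± 0.54 SE, edgeR adjusted p = 0.353), and the F3H difference is not read for the reason given above.

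The order of the members by level shifted with these changes. Per kb of exon, the *A. thaliana* controls ran from CHS (18.15 CPM per kb) over CHI (7.75), FLS1 (4.84), LDOX (1.83), PAP1 (1.70), DFR (1.42), F3'H (0.989) and MYB111 (0.893 CPM per kb) to MYB12 (0.049 CPM per kb). CHS, CHI and FLS1 did not overlap each other, whereas LDOX, PAP1 and DFR overlapped, as did F3'H and MYB111. F3'H and MYB111 also lay within the ranges of LDOX and DFR, so that the order from LDOX to MYB111 is not resolved. After HS MYB111 reached 14.6 CPM per kb and was second to CHS at 232.9 CPM per kb. In the *A. lyrata* controls the order was CHS (154.3 CPM per kb), FLS1 (29.6), CHI (27.5), F3H (26.4), LDOX (4.99), DFR (4.17), MYB111 (3.71), PAP1 (2.28), MYB12 (0.409) and F3'H (0.387 CPM per kb). There FLS1, CHI and F3H overlapped, and after HS FLS1 at 38.7 CPM per kb led CHS at 20.3 CPM per kb.

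**Figure D3:**
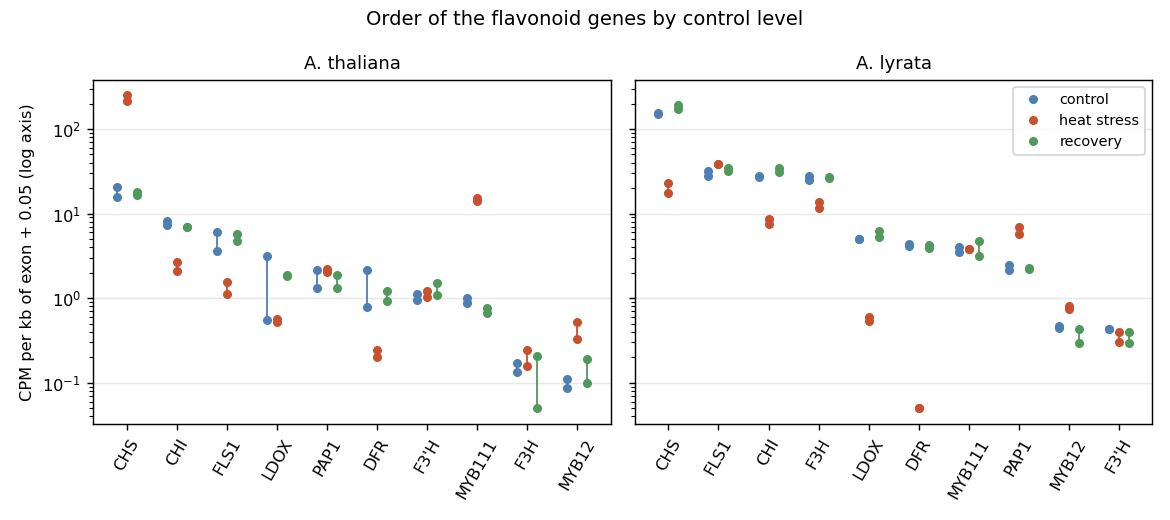
CPM per kb of exon in each library, with 0.05 added for the log axis, members ordered by their mean control level in *A. thaliana* (left) and *A. lyrata* (right). Points are libraries, and a line joins the 2 of a group. After HS, MYB111 rises to the second place in *A. thaliana* and FLS1 leads in *A. lyrata*.

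After 48 h of recovery the members were back near their control levels in both species. In *A. thaliana* edgeR called none of the 8 tested members (0 at an unadjusted p under 0.05, 0 by DESeq2), beside 1.34% of all genes higher and 0.766% lower. The log2 fold changes lay between -0.42 for DFR and 0.35 for F3'H. These values turn on the controls. Without control 1 the log2 fold changes were 0.52 for FLS1 and 1.84 for LDOX. Without control 2 they were -1.05 for DFR and -0.81 for LDOX. Each of these fits has 1 control library, so no call is read from it. In *A. lyrata* edgeR called none of 9 members (2 higher at an unadjusted p under 0.05, 0 by DESeq2), beside 7.65% of all genes higher and 4.73% lower. CHS and CHI were slightly above the controls in both recovery libraries, by 0.24 ± 0.10 SE and 0.26 ± 0.10 SE on the log2 scale (n = 2 per group, edgeR adjusted p = 0.126 and 0.104).

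Recovery was also set against the HS libraries, which this comparison shares with that of HS and control. In *A. thaliana* CHI, FLS1 and DFR were higher in recovery than in HS and CHS and MYB111 lower, where 39.2% of all genes were called higher and 34.1% lower. CHS was 13.5-fold and MYB111 21.6-fold lower than in HS, and the DFR call was lost without HS 2. In *A. lyrata* CHS, CHI, F3H, DFR and LDOX were higher and FLS1, PAP1 and MYB12 lower, where 39.1% of all genes were higher and 38.3% lower. Of the latter, FLS1 and MYB12 were lost in 6 and 7 of 10 alternatives. The recovery difference between the species was called for none of 10 members by edgeR (1 at an unadjusted p under 0.05, 0 by DESeq2), beside 5.99% of pairs higher and 3.41% lower. This result turned on the *A. thaliana* controls. The LDOX difference was -1.56 without control 1 and 1.01 without control 2, with 1 control library left in each fit.

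The genes around the members were read from 7 lists of the same pathway, and 47 of their loci were tested in each species. Shares of all genes called, as given above, were 34.9% higher and 39.5% lower in *A. thaliana* HS and 37.9% and 38.7% in *A. lyrata* HS, and the counts of each list stand beside these. List counts with library totals have another background. In that setting 3409 of 18536 *A. thaliana* genes were higher and 11104 lower after HS, and 6386 and 9617 of 20779 *A. lyrata* genes. The general phenylpropanoid entry supplies CHS with its substrate. In *A. thaliana* 6 of 8 tested genes fell after HS and 1 rose, and in *A. lyrata* 7 of 7 fell, with medians of -2.02 and -1.47. The phenylalanine ammonia-lyase PAL1 fell by 3.10 ± 0.15 SE on the log2 scale in *A. thaliana* (edgeR adjusted p = 1.5e-06) and by 1.47 ± 0.10 SE in *A. lyrata* (edgeR adjusted p = 4.93e-10). The gene that rose, cinnamate 4-hydroxylase (C4H), went from 63.5 and 62.7 CPM to 257.0 and 266.7 CPM in *A. thaliana*, together with CHS, and from 68.3 and 71.3 CPM to 56.5 and 58.2 CPM in *A. lyrata*. The C4H difference between the species was -2.30 ± 0.13 SE (edgeR adjusted p = 5.19e-09).

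Other enzymes act beside or after the members. Of 6 tested genes of the core and of flavonol decoration, 3 rose and 2 fell in *A. thaliana* (1 and 3 with library totals), and 1 rose and 3 fell in *A. lyrata* (1 and 5 with library totals), where 34.9% and 39.5% of all *A. thaliana* and 37.9% and 38.7% of all *A. lyrata* genes did. The flavonoid glucosyltransferase UGT78D2 rose from 8.87 and 10.2 CPM to 42.6 and 43.4 CPM in *A. thaliana* and fell from 9.13 and 10.6 CPM to 5.25 and 4.90 CPM in *A. lyrata* (difference -3.10 ± 0.20 SE, edgeR adjusted p = 1.56e-08). The rhamnosyltransferase UGT89C1 went the opposite way, by -2.07 ± 0.24 SE in *A. thaliana* and 0.50 ± 0.08 SE in *A. lyrata* (difference 2.61 ± 0.22 SE, edgeR adjusted p = 1.74e-07), as FLS1 did. Another locus covers 57.84% of *A. thaliana* UGT89C1. CHIL, a helper protein of CHS, fell by 3.77 ± 0.18 SE on the log2 scale in *A. lyrata* (edgeR adjusted p = 2.96e-12) and was not called in *A. thaliana* (-0.64 ± 0.29 SE, edgeR adjusted p = 0.0754).

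In the anthocyanin decoration and transport list, 4 of 6 tested genes rose and 1 fell in *A. thaliana* (1 and 2 with library totals), and 3 rose and 3 fell in *A. lyrata*, beside 34.9% and 39.5%, and 37.9% and 38.7%, of all genes. The genes that fell, in *A. thaliana* GSTF12 only, went in the direction of DFR. GSTF12, the TT19 protein needed to bring anthocyanins into the vacuole, fell from 77 and 28 reads to 1 and 2 in *A. thaliana* and from 39 and 64 reads to 2 and 3 in *A. lyrata*. In *A. thaliana* the log2 fold change of GSTF12 was -4.89, and it was -3.37 without control 1 and -5.67 without control 2. The *A. lyrata* glycosyltransferases UGT79B1 and UGT75C1 fell too. UGT79B1 had 37 control reads and 0 after HS (ratio 0, exact 95% interval 0 to 0.0809). UGT75C1 had 83 and 1 (ratio 0.0093, exact 95% interval 0.000233 to 0.0532). In *A. thaliana* UGT75C1 was not called (ratio 0.807, exact 95% interval 0.606 to 1.07), and its species difference was -6.02 ± 0.81 SE (edgeR adjusted p = 1.73e-05). The acyltransferase 3AT1 rose in both, by 1.40 ± 0.20 SE in *A. thaliana* and 2.75 ± 0.16 SE in *A. lyrata* (edgeR adjusted p = 0.000415 and 6.05e-11). Of the 7 genes of the proanthocyanidin branch, which works in the seed coat, 1 in *A. thaliana* and none in *A. lyrata* had enough reads to test. In the neighbouring monolignol and sinapate branch 4 of 8 tested genes rose and 4 fell in *A. thaliana* (2 and 5 with library totals), against 1 and 6 of 8 in *A. lyrata*, and the *A. thaliana* counts lay near the 34.9% and 39.5% of all genes. The sinapate acyltransferase SNG1 fell in both, by 1.45 ± 0.12 SE and by 3.61 ± 0.10 SE on the log2 scale (edgeR adjusted p = 2.17e-05 and 2.29e-15).

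**Figure D4:**
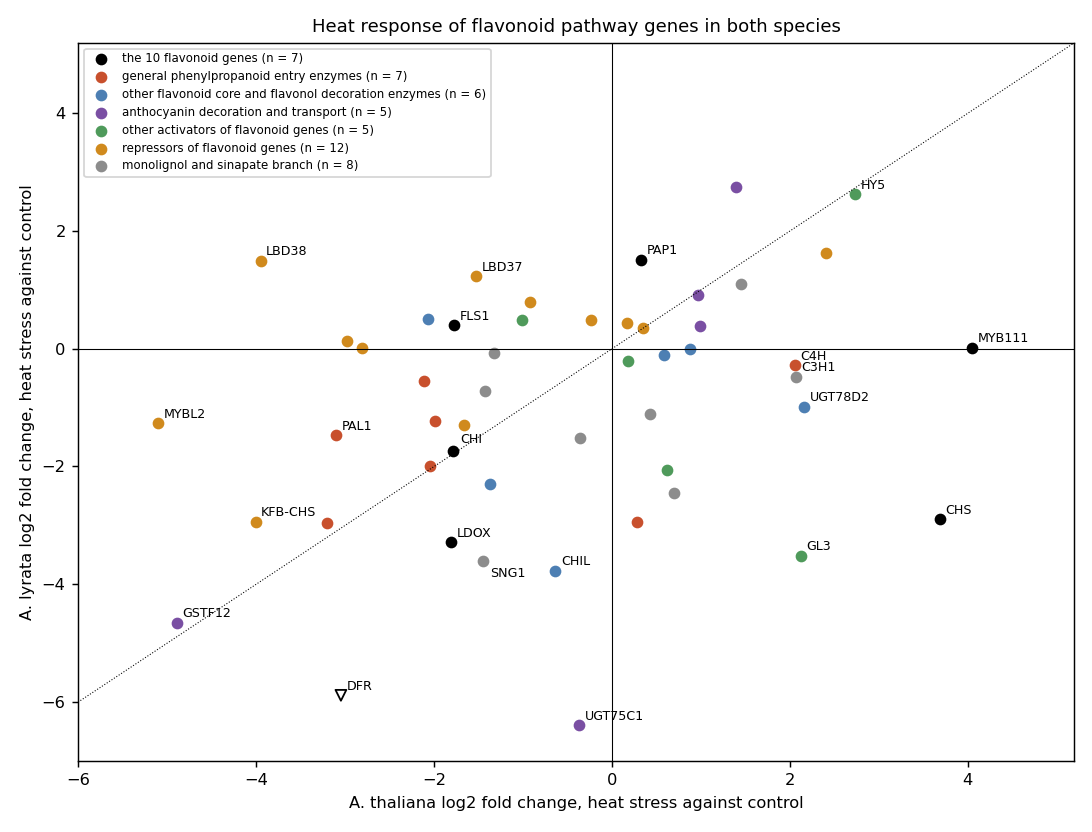
Log2 fold change after HS in *A. thaliana* (horizontal) against *A. lyrata* (vertical) for the 50 single orthologue pairs of the members and 6 pathway lists tested in both species. The dotted line marks equal change and the triangle the limit for *A. lyrata* DFR. CHS lies at the lower right, and the repressors LBD37 and LBD38 lie at the upper left.

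Known repressors of flavonoid genes moved together in some cases and apart in others. Of 13 tested in *A. thaliana*, 8 fell and 2 rose (11 and 1 with library totals), and of 12 in *A. lyrata*, 3 fell and 6 rose, with medians of -1.53 and 0.40. Over all genes 39.5% fell and 34.9% rose in *A. thaliana*, and 38.7% fell and 37.9% rose in *A. lyrata*. With library totals 11104 of 18536 *A. thaliana* genes fell and 3409 rose. MYBL2, KFB-CHS and MYB4 fell in both species and MYB32 rose in both. MYBL2, a MYB that represses DFR in *A. thaliana*, fell from 80.1 and 83.2 CPM to 2.63 and 2.27 CPM in *A. thaliana* (-5.10 ± 0.14 SE, edgeR adjusted p = 3.76e-07) and from 41.3 and 35.7 CPM to 14.3 and 16.9 CPM in *A. lyrata* (-1.26 ± 0.11 SE, edgeR adjusted p = 1.17e-08). KFB-CHS, an F-box protein that in *A. thaliana* marks the CHS enzyme for degradation, fell in both species, by 4.01 ± 0.20 SE and 2.94 ± 0.13 SE on the log2 scale (edgeR adjusted p = 1.7e-06 and 7.05e-13). LBD38, of a family of nitrate-induced repressors of PAP1, fell from 38.1 and 29.0 CPM to 1.76 and 2.31 CPM in *A. thaliana* and rose from 15.9 and 18.4 CPM to 47.3 and 49.98 CPM in *A. lyrata*. Its relatives LBD37 and LBD39 showed the same opposition, and the differences between the species were 5.46 ± 0.24 SE for LBD38, 2.80 ± 0.21 SE for LBD37 and 1.74 ± 0.14 SE for LBD39 (edgeR adjusted p = 5.43e-10, 5.64e-08 and 1.14e-07). In the direct test 8 of 13 repressors were higher in *A. lyrata* and 5 were not called, beside the 32.0% and 30.6% of all pairs.

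Among the other activators, HY5, a bZIP factor of light signalling that binds the CHS promoter in *A. thaliana*, rose in both species. It went from 4.95 and 2.60 CPM to 22.8 and 25.4 CPM in *A. thaliana* and from 2.46 and 2.87 CPM to 18.5 and 15.5 CPM in *A. lyrata*, and the difference between the responses was -0.08 ± 0.39 SE (edgeR adjusted p = 0.878). Of 5 tested activators in *A. thaliana* 1 rose and 1 fell, a count that changed without control 1. Of 8 in *A. lyrata* 4 rose and 3 fell, near the 37.9% and 38.7% of all genes there. MYB113, a relative of PAP1, had 2 and 3 reads in the *A. lyrata* controls and 45 and 107 after HS (ratio 23.5, exact 95% interval 9.83 to 73.3), while its *A. thaliana* copy had 16 and 2 reads in the controls and 0 and 3 after HS, and was not tested. The basic helix-loop-helix partner GL3 fell by 3.52 ± 0.29 SE on the log2 scale in *A. lyrata* (edgeR adjusted p = 4.36e-09) and TTG1 rose there by 0.49 ± 0.09 SE (edgeR adjusted p = 0.00013), whereas TTG1 fell by 1.01 ± 0.11 SE in *A. thaliana* (edgeR adjusted p = 8.64e-05). HYH and TT8 also fell in *A. lyrata*, by 2.06 ± 0.19 SE and 2.39 ± 0.68 SE (edgeR adjusted p = 2.1e-08 and 0.004). MYB11 rose there by 1.07 ± 0.46 SE (edgeR adjusted p = 0.0411). The HYH difference between the species was -2.62 ± 0.30 SE (edgeR adjusted p = 4.12e-06). Near-identical copies, such as the PAP1 relatives and the acyltransferases SCPL10 and SNG1, may share reads, and their counts are uncertain to that extent.

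In recovery none of the 47 other *A. thaliana* pathway loci was called by edgeR (6 at an unadjusted p under 0.05, 1 by DESeq2). In *A. lyrata* 2 were higher and 4 lower (1 and 2 by DESeq2), beside 7.65% and 4.73% of all genes. MYB113 stayed up, with 19 and 30 reads, and the repressors MYBL2, at 24.3 and 25.4 CPM, and LBD37, at 75.1 and 75.0 CPM, lay below their controls of 35.7 to 41.3 CPM and 106.4 to 112.8 CPM (log2 fold changes -0.62 ± 0.10 SE and -0.55 ± 0.08 SE, edgeR adjusted p = 0.000688 and 0.000156).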

How the data were processed

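RNA was sequenced from rosette leaves of both species, 2 libraries per group and 12 in all, as strand non-specific 100 bp single-end reads. Per the study's methods the authors mapped the reads with TopHat2 to TAIR10 or *A. lyrata* v1.0 and counted them per gene with Qualimap. They deposited whole-number read counts per gene, with no normalization, which are the values used here. 12 further deposited columns headed RPKM were not used. Reads in overlapping loci and strand could not be separated in these counts.

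Loci with low counts were removed with filterByExpr (count minimum 10), libraries were scaled with TMM, and groups were compared with glmQLFit and glmQLFTest in edgeR 4.0.16 under R 4.3.3, using all 6 libraries of a species and 3 residual degrees of freedom. SE is the log2 fold change divided by the square root of F. The difference between the species was an interaction over 22051 single orthologue pairs of the deposited annotation (17743 after the filter). CPM used the same factors, and CPM per kb divided by exon length (RefSeq TAIR10.1 models for *A. thaliana*, the deposited annotation for *A. lyrata*). The test was checked on simulated data, where the share of false calls lay above the threshold in both fits of a single species. Limits for counts of 0 used 3 reads over the group and took the control reads as counted. Exact 95% intervals cover counting error only. Depth was 8246880 to 45254555 reads, and members with few reads were left untested.

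Alternatives were size factors of DESeq2 (RLE), library totals, no filter, DESeq2 1.42.0, a replicate block, only the 2 groups compared, and leaving out each library. The members and the gene lists were chosen with earlier results of these data known. All 10 members were named. From each other list, candidates were the genes with the largest called change and no overlap of libraries, up to 3 in each direction. Only some candidates were described, and C3H1, CAD5, FAH1, BGLU10 and FLS2 are among those left out. The genes described are therefore a selection and do not follow a fixed rule. CHIL, MYB4, MYB113 and UGT75C1 in *A. thaliana*, LBD39, PAL1, C4H and TTG1 in *A. lyrata*, the marker PDF1 and species differences of listed genes were named after their values were seen. Promoter windows were read from RefSeq TAIR10.1, whose gene positions lay within 2000 bp of those of the deposited table for 99.6% of 31912 loci.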

Additional observations from a re-analysis of the deposited data

Results flagged for a closer look

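The response to HS differed between the species for 6 of the 10 genes in the direct test of the difference, given as the *A. lyrata* minus the *A. thaliana* log2 fold change with 2 libraries per group and adjusted p from edgeR. Over all tested pairs 32.0% were called higher and 30.6% lower, so that 6 of 10 lies near the share of all genes. CHS differed by -6.5619 and MYB111 by -3.9976, both higher after HS in *A. thaliana*. FLS1 differed by 2.14, as it fell in *A. thaliana* and rose slightly in *A. lyrata*. These 3 calls held in 13 of 13 alternatives. PAP1 differed by 1.1564 (adjusted p = 0.0116) and rose in *A. lyrata*. DFR differed by -6.4997, a fitted value that rests on 0 reads in both *A. lyrata* HS libraries and is no bound. MYB12 differed by -2.0748 (adjusted p = 0.0336), with 4 control reads in *A. thaliana*. Groups of 2 libraries are too small for a search for single libraries that stand apart.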

How the results depend on the processing

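Of 769 member results recomputed under alternatives, 719 kept their direction and side of the threshold, counting 38 sign changes of values called in neither fit. With library totals, 5 members instead of 3 were higher in *A. thaliana* recovery than in HS, and 1 instead of 2 rose after HS in *A. lyrata*. For *A. lyrata* recovery against HS, 1 instead of 3 was lower with library totals, without a filter and in DESeq2. In DESeq2, 1 instead of 2 differed between the species as higher in *A. lyrata* after HS. The cause was not tested. Leaving out 1 library gave 0 to 2 higher and 0 to 2 lower members in *A. thaliana* recovery, 1 to 2 lower in *A. lyrata* recovery against HS, 1 to 2 higher and 2 to 4 lower in the species difference after HS, and 0 to 4 higher and 0 to 1 lower in that of recovery. LDOX turned in *A. thaliana* recovery, from -0.8053 without control 2 to 1.836 without control 1, and in the species difference of recovery, from -1.5625 without control 1 to 1.0108 without control 2. In alternatives chosen after seeing the data, 563 results of genes from the other lists were kept, 29 lost their call and 3 turned. CCR1 (-0.0419), OMT1 (-0.1517) and SPA1 (-0.388) turned from a rise to these values in *A. thaliana* HS with library totals.

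Replicate numbers did not pair the libraries, with correlations of same-numbered deviations between -0.049 and 0.114. A replicate block gave the reported counts of members in every comparison, among them 2 higher and 3 lower after HS in *A. thaliana* and 2 and 5 in *A. lyrata*. With 2 libraries per group and 3 residual degrees of freedom, small changes could be missed in members with few reads, such as MYB12, or with a wide spread. *A. thaliana* F3H and MYB12 and *A. lyrata* F3'H were not tested.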
